A study of Mus musculus with 9 samples.

Results

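The mRNAs described here encode the core proteins of microRNA-guided silencing: the 4 Argonautes (listed under their older symbols Eif2c1 to Eif2c4, now Ago1 to Ago4), the TNRC6 scaffold proteins (Tnrc6a, Tnrc6b and Tnrc6c) and the ribonuclease Dicer (Dicer1). They were chosen by symbol, and all 8 were found among the 20467 genes of the deposited count table. RNA was sequenced from RAW264.7 cells, a mouse macrophage line, and every library, control libraries included, came from cells given lipopolysaccharide (LPS, a bacterial cell wall component that activates macrophages) at 100 ng/ml for 2 h. Roquin IP was RNA recovered on protein A/G beads with rabbit polyclonal antibodies that bind Roquin, control IP was RNA recovered on the same kind of beads with no antibody, and input was RNA of the lysate taken ahead of the immunoprecipitation (IP), each with 3 biological replicates. Since the control beads carried no antibody, RNA held by the antibodies through another protein cannot be told apart from RNA held by Roquin.

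A microRNA is cut from its hairpin precursor by Dicer and loaded into an Argonaute protein, which then pairs with matching sites in mRNAs. Argonaute binds a TNRC6 protein, and TNRC6 brings in the CCR4-NOT deadenylase, which shortens the poly(A) tail and starts decay of the mRNA. Roquin also shortens the life of mRNAs through CCR4-NOT, but it recognises a stem-loop, the constitutive decay element (CDE), by shape and sequence, with no microRNA as a guide. The values below are amounts of the mRNAs that encode the silencing proteins, and they say nothing of the proteins themselves or of microRNAs: 0 rows of the table name a microRNA gene.

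Libraries held 1799390 to 12975767 reads assigned to genes, of which 813 to 5268 fell on the 8 genes. Levels are given as CPM, counts scaled to a common library size after a TMM factor (a correction for a few very abundant RNAs taking up reads). 1 CPM stood for 2.02 to 11.7 reads, depending on the library. All 9 macrophage markers listed were detected and tested, while the listed lymphocyte, fibroblast, epithelial and endothelial markers summed to at most 1.18 CPM per list in any library and none passed the count filter. For scale, Rc3h1, which encodes Roquin-1 and whose own mRNA carries CDEs, exceeded control IP 98.8-fold in Roquin IP.

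Eif2c1 was the only member called higher in Roquin IP here, while the p-value in the authors' deposited table for it was 0.876. Its level in Roquin IP was 4.12 times that of control IP and 4.84 times that of the input, and these comparisons share the Roquin IP libraries. The other 7 members did not pass the test in either comparison. The authors' deposited table classed all 8 genes as "no CDE", the class of 98.6% of the genes tested and of 91.4% of the 360 called higher in Roquin IP over control IP.

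The annotated 3′ untranslated region (UTR) of Eif2c1 contains the short core of the CDE pattern, and its sequence is shown because the deposited class gives none. The core searched was TTC, then a pyrimidine, a purine and a pyrimidine as the loop, then GAA, on the transcript strand only, in the longest 3′ UTR of each gene in GENCODE vM21 (mouse build GRCm38). In the lines that follow the 9 core bases are in capitals, with 7 bases on each side. The sites lie at chr4:126435949-126435971 (minus strand) in Eif2c1, at chr15:80937198-80937220 (plus strand) in Tnrc6b, and at chr17:35199581-35199603 (minus strand) in Tnf, whose element is the reference example of a CDE.
Eif2c1 3′ UTR site: accagaaTTCTATGAAtgatgcc
Tnrc6b 3′ UTR site: ttgctatTTCTGTGAAcagggta
Tnf 3′ UTR site: acatgttTTCTGTGAAaacggag
The stem of the Tnf site extends to 6 Watson-Crick pairs. In Eif2c1 the stem reached 4 pairs, and in Tnrc6b it ended at the 3 pairs of the core. The other 6 members had 0 matches anywhere in their transcripts. Of 9447 tested genes with an annotated 3′ UTR, 6.01% held the core, and of the 318 whose 3′ UTR was within 10% of the length of that of Eif2c1 (4491 bases), 15.7% did. Among 359 genes called higher in Roquin IP over control IP that have an annotated 3′ UTR, 17.3% held the core. Among the 328 of these classed "no CDE", as Eif2c1 was, 10.7% did. The 3′ UTRs of the 359 genes were also longer, with a median of 2008 bases against 1200 for all tested genes. Of 18 tested genes with a 3′ UTR within 10% of the length of that of Tnrc6b, 27.8% held the core.

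Eif2c1 also held a pair of longer hairpins with the same kind of loop (pyrimidine, purine, pyrimidine) but a stem that differs from TTC and GAA. Both are shown with the loop in capitals, and each has 6 Watson-Crick pairs. They lie at chr4:126437514-126437528 and chr4:126437368-126437382 on the minus strand, 1975 and 2121 bases into the 3′ UTR.
Eif2c1 hairpin at base 1975: atttgcTATgcaaat
Eif2c1 hairpin at base 2121: gtgcccCATgggcac
A hairpin of at least 6 pairs with this loop occurred in 10.5% of tested 3′ UTRs and in 27.7% of those close to Eif2c1 in length. Among genes called higher in Roquin IP over control IP the share was 36.8%, and among those of them classed "no CDE" it was 34.1%. All of these shares also count core matches whose stem reaches at least 6 pairs. The called genes had a median 3′ UTR length of 2008 bases, against 1200 for all tested genes. Eif2c2 held 1 and Eif2c3 held 2 in 3′ UTRs of 11064 and 12742 bases, and neither mRNA passed the test in Roquin IP. A match describes letters in an annotated sequence and is not evidence of a bound site.

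**Figure D1:**
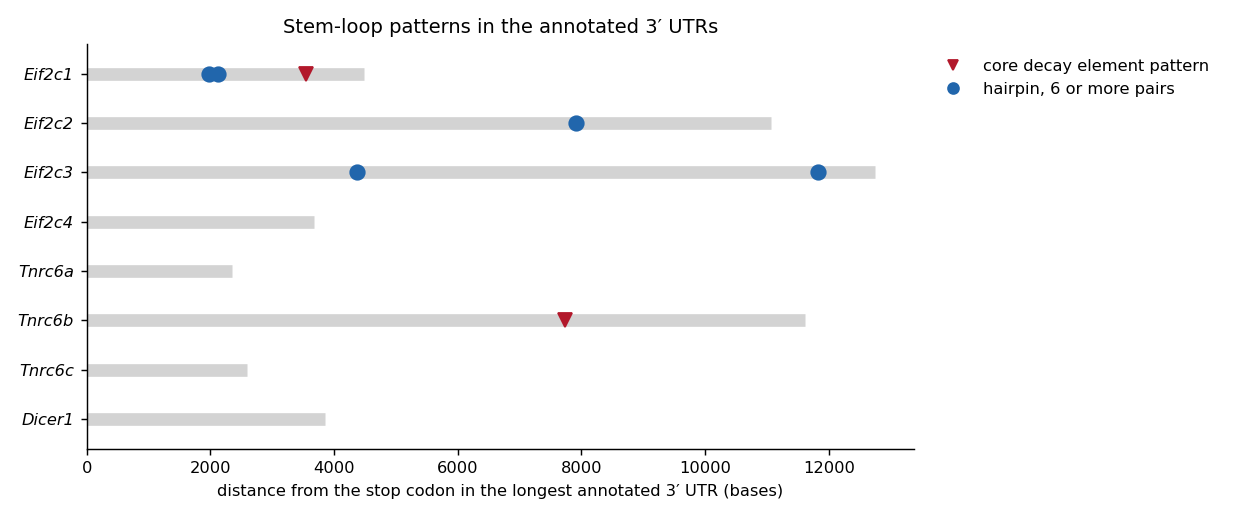
Each grey bar is the longest annotated 3′ UTR of a member, drawn from the stop codon in bases, with red triangles at the core decay element pattern and blue circles at hairpins of at least 6 pairs. Eif2c1 is the only member of the 8 with both kinds of mark.

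All 8 mRNAs are long, and most of their length is untranslated in the Argonautes. The longest annotated transcripts ran from 6537 bases (Eif2c4) to 17332 bases (Tnrc6b), against a median of 3152 bases over tested genes. The 3′ UTR made up 56.3% to 81.7% of the Argonaute transcripts, 28.7% to 67.0% of the TNRC6 transcripts and 39.1% of Dicer1. Eif2c3, Eif2c1 and Eif2c4 are neighbours on the minus strand of chromosome 4 (GRCm38 126331704 to 126533472), and Eif2c2 lies on chromosome 15. Of the 36-base words in the Eif2c1 transcript, 2.13% also occurred in another member, so few reads of that length could be shared between the paralogs; the share was at most 0.868% in the other 7. Eif2c2 overlaps 219 exonic bases of Chrac1 on the other strand, and the sources used here do not say how the authors treated strand. On its own strand, Tnrc6a overlaps 143 exonic bases of Gm45846 and Tnrc6b overlaps 82 of Mir5113, so reads there cannot be assigned by strand.

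Eif2c1 (GRCm38 chr4:126435012-126468583) encodes Argonaute 1, one of the Argonautes that silence through TNRC6. Its level was 371.4, 141.7 and 191.6 CPM in Roquin IP 1, 2 and 3, from 887, 1123 and 1984 reads. It was 73.9, 51.3 and 45.9 CPM in control IP 1, 2 and 3, and 71.1, 35.1 and 38.6 CPM in input 1, 2 and 3. The lowest Roquin IP library lay above the highest of the other 6, and Roquin IP 1 stood well above the other 2 of its group. Mean levels with SD (n = 3) were 234.9 ± 120.8 CPM for Roquin IP, 57.0 ± 14.8 CPM for control IP and 48.3 ± 19.9 CPM for input.

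edgeR's quasi-likelihood test put Eif2c1 2.04 log2 units above control IP (SE 0.39, adjusted p = 0.00544) and 2.28 above the input (SE 0.40, adjusted p = 0.0027). The 95% interval of the fold ran from 2.29 to 7.40 over control IP and from 2.67 to 8.79 over the input. On beads alone the difference did not pass: control IP over input was 1.18-fold (95% interval 0.66 to 2.09, adjusted p = 0.788). A larger fold over control IP was seen in 2.46% of tested genes, and in 217 of the 360 called higher. Same-numbered libraries, which deviated together across genes, gave folds over control IP of 5.03, 2.76 and 4.17 for numbers 1, 2 and 3. Since every Roquin IP library lay above every control library, any pairing would put Roquin IP higher. Scaled by library size alone, with no TMM factor, the folds were 2.35 and 2.89 and both still passed (adjusted p = 0.0263 and 0.00982). That scaling moved the median log2 fold change over all genes from -0.12 to -0.96 over control IP and from -0.01 to -0.76 over the input. The authors' deposited table gave a linear ratio of 4.16, close to the fold found here, with a p-value of 0.876, and it listed 249 genes with p under 0.05.

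Of the 8 members, 1 was called higher in Roquin IP over control IP, where 3.76% of all 9567 tested genes were, and 0 were called lower, where 0% were (5.52% and 0.115% of all genes with the replicate number as a block). Over the input, 1 of 8 was called higher and 0 lower, where 5.45% and 2.79% of all genes were (9.99% and 8.04% with the block, which left the members' calls as they were). At an unadjusted p under 0.05 the counts of members were the same, 1 higher and 0 lower in each, and DESeq2 also called only Eif2c1. The median log2 fold change of the members was 0.24 over control IP and -0.08 over the input, against -0.12 and -0.01 for all genes tested. Without regard to a test, all 3 Roquin IP libraries lay above all 3 control libraries for 2 members (10.7% of all genes) and below them for 0 (8%). Against the input they lay above for 1 member (16.5%) and below for 0 (14.4%), so such separation was common among all genes. Eif2c1 was singled out after its values were seen.

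**Figure D2:**
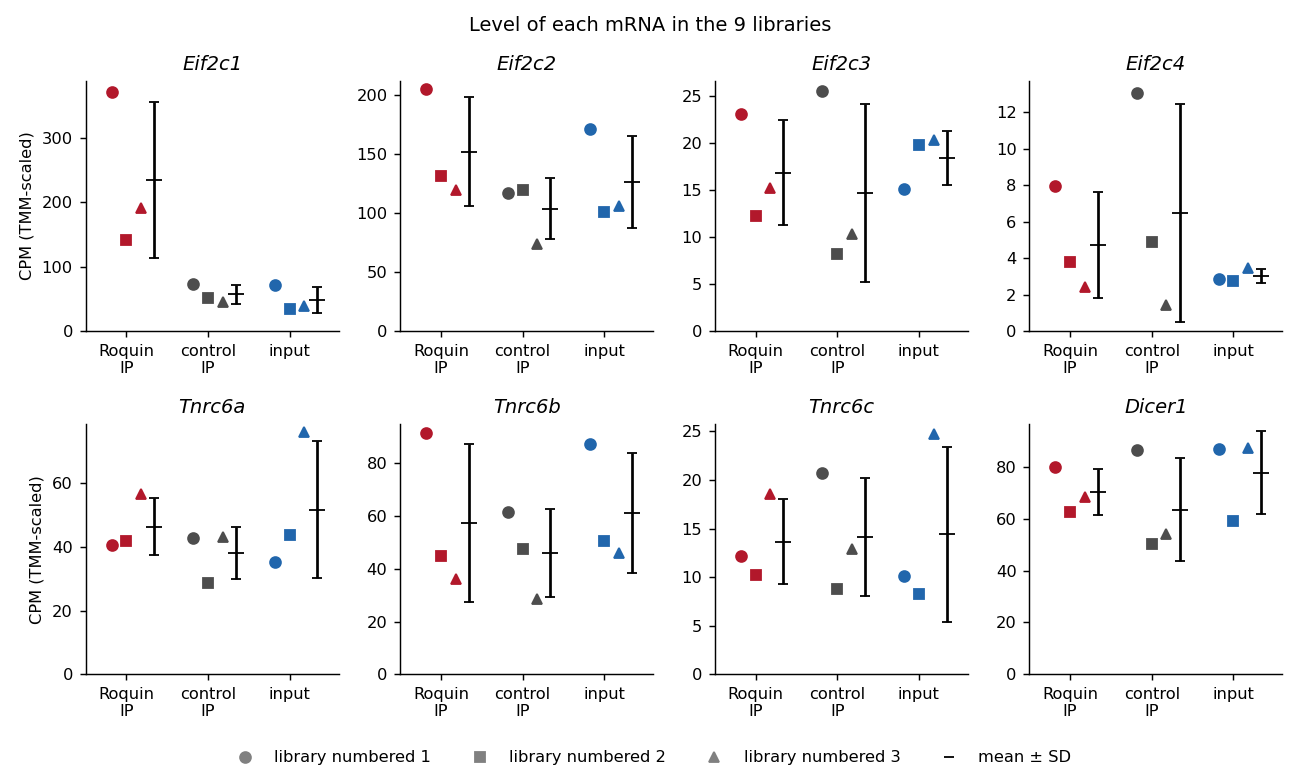
Levels in CPM (TMM-scaled, axis from 0) of each mRNA in Roquin IP, control IP and input, with circles, squares and triangles for libraries numbered 1, 2 and 3 and the mean ± SD beside them. All 3 Roquin IP libraries of Eif2c1, at 141.7 to 371.4 CPM, lie above its 6 other libraries.

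Eif2c2 encodes Argonaute 2, the family member best known for cutting its target RNA. It stood at 205.6, 131.5 and 120.1 CPM in Roquin IP 1, 2 and 3, and at 117.4, 119.9 and 74.0 CPM in control IP 1, 2 and 3. The lowest Roquin IP value exceeded the highest control value by less than 1 CPM. The input ran from 101.4 to 171.1 CPM and overlapped both IPs. Its fold over control IP was 1.47 (95% interval 0.914 to 2.35, edgeR adjusted p = 0.644). The log2 fold change was 0.55, or -0.27 with library size alone, where the median gene was at -0.96.

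Eif2c3 and Eif2c4 encode Argonautes 3 and 4 and were the scarcest Argonaute mRNAs. Roquin IP held 55, 97 and 157 reads of Eif2c3, control IP held 84, 42 and 120, and the input held 37, 50 and 41. Its levels overlapped in every comparison, at 12.2 to 23.0 CPM, 8.22 to 25.5 CPM and 15.0 to 20.3 CPM in the same order of groups. Eif2c4 had 7 reads in each input library, 17 to 43 in control IP and 19 to 30 in Roquin IP. The 95% interval of the fold over control IP ran from 0.596 to 2.21 for Eif2c3 and from 0.24 to 2.16 for Eif2c4. The Eif2c4 value turned on control IP 1, being 0.72-fold with that library and 1.45-fold without it.

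Because the Argonaute genes can be compared within a library, their relative amounts do not depend on how libraries are scaled. Eif2c1 made up 61.1%, 49.0% and 58.2% of the reads of the 4 genes in Roquin IP 1, 2 and 3. Its share of control IP 1, 2 and 3 was 32.1%, 27.8% and 34.9%, and that of input 1, 2 and 3 was 27.3%, 22.1% and 22.9%. The exact binomial 95% intervals, which cover counting error only, reached from 46.9% to 63.6% over the Roquin IP libraries and from 18.1% to 37.3% over the other 6, with no overlap. All 3 control IP shares also lay above the 3 input shares. The mean share with SD (n = 3) was 56.1% ± 6.31 for Roquin IP, 31.6% ± 3.55 for control IP and 24.1% ± 2.84 for input. Eif2c2 took the largest share of these reads in the input, at 64.2% ± 1.42, and held 38.6% ± 6.11 in Roquin IP. The shares are not corrected for transcript length, which is 13800 bases for Eif2c2 and 7227 for Eif2c1. A higher share of 1 gene also lowers the shares of the others. The level of Eif2c2 itself was not lower with the antibodies, at 1.20-fold over the input (95% interval 0.748 to 1.93) and 1.47-fold over control IP (0.914 to 2.35), neither called.

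**Figure D3:**
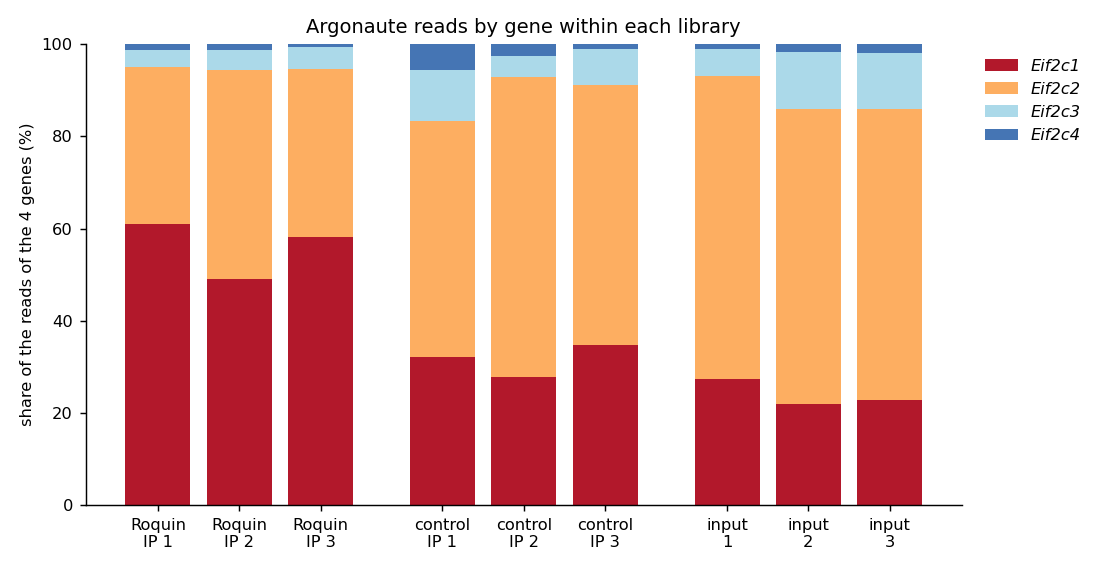
Stacked bars give the share (%) of each Argonaute mRNA among the reads of the 4 genes in each library. The Eif2c1 segment reaches 49.0% to 61.1% in Roquin IP and 22.1% to 34.9% in the other 6 libraries.

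Within libraries, Eif2c1 was set against each of the other 7 members in turn. In Roquin IP there were 1.08 to 1.81 Eif2c1 reads per Eif2c2 read, while control IP had 0.428 to 0.63 and input 0.348 to 0.416. Per Dicer1 read there were 2.27 to 4.63 in Roquin IP, with control IP at 0.851 to 1.02 and input at 0.445 to 0.818. The 7 ratios share the Eif2c1 reads and so are not independent of one another. All 7 were higher in every Roquin IP library than in any control IP or input library, by 2.65-fold (Eif2c2) to 4.20-fold (Eif2c4) over control IP on average. Each of these differences had a two-sided exact permutation p of 0.1, which is the smallest that 3 libraries against 3 allow, or 0.124 adjusted over the 21 ratios compared, so the design cannot reach 0.05 for a single ratio. On beads alone, the ratios of Eif2c1 to Eif2c2, Tnrc6b and Dicer1 were also higher in every control IP library than in any input library, by 1.47-fold, 1.63-fold and 1.51-fold (exact permutation p = 0.1 each), while the other 4 overlapped.

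The TNRC6 mRNAs did not differ between Roquin IP and control IP beyond the spread between replicates. Tnrc6a, which encodes the scaffold also known as GW182, was at 40.6, 42.0 and 56.8 CPM in Roquin IP 1, 2 and 3. Control IP gave 42.9, 28.8 and 43.1 CPM, and input gave 35.4, 43.8 and 76.2 CPM. Its fold over control IP was 1.22 (95% interval 0.746 to 1.99, edgeR adjusted p = 0.822). The groups overlapped, and input 3 held the highest level.

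Tnrc6b, a paralog with the core CDE letters in its 3′ UTR, was at 91.7, 44.8 and 36.03 CPM in Roquin IP 1, 2 and 3. Control IP gave 61.7, 47.5 and 28.6 CPM, and input gave 87.4, 50.5 and 46.0 CPM. The fold over control IP was 1.25 (95% interval 0.685 to 2.26, edgeR adjusted p = 0.842). In each group the library numbered 1 was the highest and the library numbered 3 the lowest.

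Tnrc6c, the third paralog, had 21 to 192 reads per library and levels of 10.2 to 18.5 CPM in Roquin IP. Control IP spanned 8.80 to 20.7 CPM and input 8.29 to 24.8 CPM. Its fold over control IP was 0.981 (95% interval 0.488 to 1.97, edgeR adjusted p = 0.989). The 3 groups overlapped over most of their range.

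Dicer1 encodes the ribonuclease that cuts microRNAs from their precursors, and it had the narrowest interval of the 8. Its levels were 80.0, 62.5 and 68.2 CPM in Roquin IP 1, 2 and 3. Control IP gave 86.3, 50.1 and 54.0 CPM, and input gave 87.0, 59.2 and 87.1 CPM, so the groups overlapped. The fold was 1.11 over control IP (95% interval 0.717 to 1.71, edgeR adjusted p = 0.912) and 0.901 over the input (0.582 to 1.40, adjusted p = 0.81). With library size alone, Dicer1 was called lower than the input (log2 fold change -0.89, adjusted p = 0.0429), a scaling that put the median gene at -0.76.

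In control IP over input, which measures what beads retain without antibody, no member was called by edgeR: 0 were higher and 0 lower, where 0.815% and 0.303% of all genes were (6.65% and 5.78% with the replicate block, which also called 0 members). The count was 0 at an unadjusted p under 0.05 and with DESeq2. The log2 fold changes ran from -0.43 (Tnrc6a) to 1.04 (Eif2c4), with a median of -0.29 against 0.02 for all genes. Eif2c4 had the widest interval there, from 0.636-fold to 6.67-fold, with 13.1 CPM in control IP 1 and 1.46 in control IP 3. Without control IP 1 its log2 fold change was 0.02. All 3 control IP libraries lay above all 3 input libraries for 0 members (12.2% of all genes) and below them for 0 (10.8%).

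**Figure D4:**
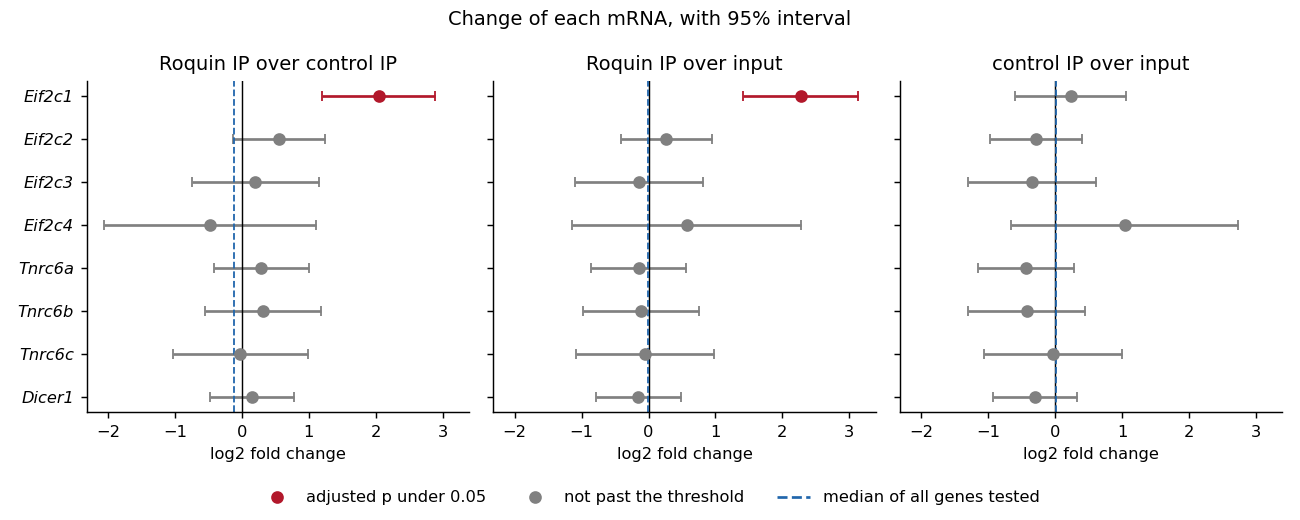
Points are the log2 fold changes of each mRNA in the 3 comparisons and bars their 95% intervals, red where the edgeR adjusted p is under 0.05, with dashed lines at the median of all genes tested. Eif2c1 is red in both Roquin IP comparisons, at 2.04 and 2.28, and the other points lie between -0.47 and 1.04.

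Divided by the length of the longest annotated transcript, the input levels of the members fell from Eif2c2 to Eif2c4, with most neighbours overlapping. Eif2c2 was at 9.16 ± 2.82 CPM per kb, Dicer1 at 7.90 ± 1.63, Eif2c1 at 6.68 ± 2.75 and Tnrc6a at 6.33 ± 2.64 (SD, n = 3), and the libraries of these 4 overlapped. Within each of the 3 input libraries, however, Eif2c2 lay above Eif2c1. Tnrc6b followed at 3.54 ± 1.31, then Tnrc6c at 1.63 ± 1.02, Eif2c3 at 1.18 ± 0.185 and Eif2c4 at 0.463 ± 0.0587. The libraries of Tnrc6b overlapped those of Tnrc6a above it and of Tnrc6c below it, Tnrc6c and Eif2c3 overlapped too, and the highest Eif2c4 library lay below the lowest of every other member. In Roquin IP, Eif2c1 stood at the top of this order with 32.5 ± 16.7 CPM per kb, ahead of Eif2c2 at 11.04 ± 3.36. Eif2c1 also had the highest mean in control IP, at 7.89 ± 2.05 against 7.52 ± 1.87 for Eif2c2, though there the libraries overlapped. Which isoforms the cells used was not measured, so the per-length levels rest on annotated lengths.

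The relative amounts of the TNRC6 paralogs differed by replicate number more than by kind of library. There were 1.51 to 1.66 Tnrc6a reads per Tnrc6b read in the 3 libraries numbered 3, 0.605 to 0.938 in those numbered 2 and 0.405 to 0.695 in those numbered 1. Libraries numbered 3 therefore lay above the other 6, whichever group they came from, while those numbered 1 and 2 overlapped. Tnrc6c gave the same picture for number 3, with 0.45 to 0.538 reads per Tnrc6b read against 0.116 to 0.335 in the other libraries. Eif2c2 per Tnrc6b read varied less, from 1.90 to 3.33 over all 9 libraries. The Tnrc6b share of the TNRC6 reads was 63.5%, 49.3% and 65.7% in Roquin IP 1, control IP 1 and input 1, and 32.4%, 33.8% and 31.3% in the libraries numbered 3. What the numbers stand for (a day, a passage, a batch) is not stated in the labels, and this pattern was noticed after the values were seen.

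**Figure D5:**
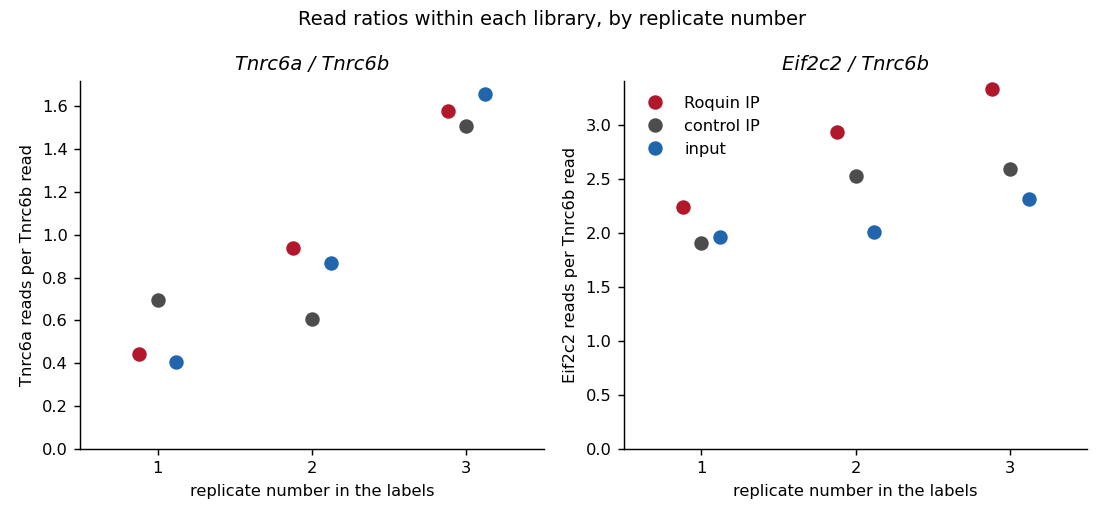
Read ratios within each library (vertical axis, from 0) are plotted against the replicate number for Tnrc6a over Tnrc6b (left) and Eif2c2 over Tnrc6b (right), coloured by group. On the left the 3 libraries numbered 3, at 1.51 to 1.66, lie above all others whatever their group.

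The genes whose log2 CPM followed Eif2c1 most closely over the 9 libraries were Sh3pxd2a, which encodes a scaffold of podosomes (Pearson's r = 0.994), Tmem170b, which encodes a membrane protein (0.989), and Spred1, which encodes an inhibitor of Ras signalling to MAP kinases (0.989). These r values are a description over 9 libraries that share the same 3 groups. The folds over control IP were 5.99 for Sh3pxd2a, 4.63 for Tmem170b and 3.19 for Spred1. Each was highest in Roquin IP 1, as Eif2c1 was, at 412.0, 692.1 and 3191 CPM. This likeness follows from choosing the 3 genes by their correlation with Eif2c1 over the same libraries. All were classed "no CDE" in the authors' deposited table, and 0 of them held the CDE core in the annotated 3′ UTR. A hairpin of at least 6 pairs with the loop shown for Eif2c1 occurred once in Sh3pxd2a, once in Tmem170b and 0 times in Spred1. Among the members, the highest r with Eif2c1 was 0.7, for Eif2c2.

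The rest of the microRNA pathway was read from a list of 53 genes, of which 51 were in the table and 46 were tested. Over control IP, 1 of the 46 was called higher and 0 lower by edgeR (3 and 0 at an unadjusted p under 0.05, 3 and 0 with DESeq2), with a median log2 fold change of -0.13 against -0.12 for all genes. That 1 gene is 2.17% of the 46, against 3.76% of all genes called higher and 0% called lower. With the replicate block 3 were higher, Cnot7, Ran and Zcchc11 (a uridylyltransferase gene), where 5.52% of all genes were. With library size alone 27 were called lower, as were 3694 of all 9567 genes.

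The gene called was Cnot7, which encodes a catalytic deadenylase of CCR4-NOT, the complex that both TNRC6 and Roquin recruit. It was at 275.9, 194.7 and 261.1 CPM in Roquin IP 1, 2 and 3. Control IP gave 66.3, 64.2 and 62.0 CPM, and input gave 102.0, 80.5 and 76.7 CPM. The Roquin IP libraries lay above all others, with a fold of 3.80 over control IP (95% interval 2.57 to 5.62, edgeR adjusted p = 2.67e-04) and 2.82 over the input (1.91 to 4.15, adjusted p = 0.00251). With library size alone the fold over control IP was 2.16 (adjusted p = 0.0201), and the call over the input ended (1.69-fold, adjusted p = 0.0725). Its annotated 3′ UTR held 0 core matches, and its deposited class was "no CDE".

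The first steps of microRNA maturation showed no called change over control IP. The folds were 1.13 for Drosha (95% interval 0.717 to 1.78) and 0.918 for Dgcr8 (0.48 to 1.75), which encode the nuclear enzyme that frees the hairpin and its partner, and 0.633 for Xpo5 (0.389 to 1.03), the exportin of the hairpin. They were 1.00 for Tarbp2 (0.325 to 3.09) and 0.714 for Prkra (0.327 to 1.56), which encode double-stranded RNA-binding partners of Dicer, and 1.10 for Mov10 (0.636 to 1.91), a helicase found with Argonaute. With library size alone, which put the median gene at -0.96, Xpo5 was called lower (log2 fold change -1.46, adjusted p = 0.0156).

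Over the input, 2 of the 46 pathway genes were called higher and 4 lower (4 and 10 with the replicate block, 0 and 25 with library size alone), with a median log2 fold change of -0.24 against -0.01 for all genes. The shares among all genes were 5.45% and 2.79% (with the block, 9.99% and 8.04%), and library size alone called 2659 of 9567 lower. Cnot7 and Ran, the GTPase that powers nuclear export, were the higher ones. Ran was 3.09-fold higher than the input (edgeR adjusted p = 0.00867, or 0.0811 with library size alone) and 2.09-fold higher than control IP, where it did not pass (adjusted p = 0.134). The lower ones were Xrn2, a nuclear 5′ to 3′ exonuclease gene (0.333-fold, adjusted p = 9.44e-04), Hsp90aa1 and Stip1, genes of the chaperone system that loads Argonaute (0.348-fold, 0.00843, and 0.377-fold, 0.0121), and the helicase gene Ddx5 (0.473-fold, 0.0204). Without Roquin IP 1 the calls of Hsp90aa1, Stip1 and Ddx5 ended (adjusted p = 0.0552, 0.0753 and 0.0821), and that of Ddx5 also ended without Roquin IP 2, Roquin IP 3 or input 1 (0.0746, 0.0845 and 0.0707) and with GC content and transcript length corrected for (0.0536).

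In control IP over input, 0 of the 46 were called higher (3 at an unadjusted p under 0.05, 0 with DESeq2, 3 with the replicate block) and 2 lower by edgeR (6 with the block). The shares of all genes were 0.815% higher and 0.303% lower, or 6.65% and 5.78% with the block. The 2 lower genes were Hsp90aa1 (0.379-fold, adjusted p = 0.0473) and Xrn2 (0.434-fold, adjusted p = 0.0342), so both were lower on beads alone as well as in Roquin IP. Both calls were near the threshold: that of Hsp90aa1 ended without any 1 of the 9 libraries (adjusted p = 0.0529 to 0.167), and that of Xrn2 without any 1 except control IP 1 (0.0538 to 0.141).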

How the data were processed

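Reads per gene were deposited by the authors as raw counts for 9 libraries, per the file headers. The deposited table also gave a Roquin IP to control IP ratio, which is linear although its header says log2, a p-value, not stated to be adjusted, and the authors' CDE class as text. CASAVA 1.8.2, BWA and DESeq 1.8.3 are named in the submitters' processing notes; the sources used here do not state the genome build, annotation or strand handling. A further 7480 rows were empty and not used.

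Counts were fitted here with edgeR 4.0.16 in R 4.3.3 (quasi-likelihood F test, TMM factors, group as the only term, all 9 libraries), on the 9567 genes that filterByExpr kept at a minimum count of 10. Benjamini-Hochberg adjustment ran over all of them, with calls at an adjusted p under 0.05. Intervals (95%) come from the fitted SE. The fit was tested on simulated data. Alternatives were RLE factors, library size alone, no filter, DESeq2 1.42.0, only the 6 libraries compared, the replicate number as a block, GC content and transcript length as splines with 4 df each, both together, and leaving out each library. Within a replicate number, deviations from group means correlated at 0.152 to 0.58 in all 9 pairs of libraries, and every such pair exceeded 0.1. The labels do not state a pairing, so the main fit left the numbers out and the block was an alternative. With the block the SE of Eif2c1 over control IP was 0.21, against 0.39 without it. Replicates were not duplicates (chi-square per degree of freedom 13.9 to 117.4).

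Of the members, 4 matched GENCODE by symbol and 4 by a RefSeq synonym; over tested genes 99% had a transcript length and 98.7% a 3′ UTR. The 8 genes were described by name, as were Drosha, Dgcr8, Xpo5, Tarbp2, Prkra and Mov10, each listed pathway gene with an adjusted p under 0.05 in any comparison, and the 3 genes most correlated with a called member. The members and lists were chosen with earlier results of these data known. With 3 libraries a group, counting intervals cover counting error only.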

Additional observations from a re-analysis of the deposited data

How the results depend on the processing

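The calls of Eif2c1 held under all alternatives run here. Against control IP its log2 fold change ran from 1.23 (library size alone) to 2.31 (leaving out 1 library), and against the input from 1.53 to 2.67. The authors' deposited table, in contrast, gave Eif2c1 a p-value of 0.876 at a linear ratio of 4.16. The counts of members called changed under 1 setting: with library size alone 1 member, Dicer1, was lower in Roquin IP than in the input. The replicate block changed no call of a member: Eif2c1 was at 1.95 over control IP and 2.24 over the input with it.

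Some uncalled values changed sign. Library size alone moved all genes together, the median from -0.12 to -0.96 over control IP, from -0.01 to -0.76 over the input and from 0.02 to 0.11 in control IP over input. With it the log2 fold changes over control IP were -0.27 (Eif2c2), -0.59 (Eif2c3), -0.53 (Tnrc6a), -0.51 (Tnrc6b), -0.66 (Dicer1), -0.65 (Drosha), -0.82 (Tarbp2) and -0.69 (Mov10). Over the input they were -0.49 (Eif2c2) and -0.20 (Eif2c4), and in control IP over input Tnrc6c was at 0.057. For the other settings the cause was not tested. With only the 6 libraries compared, Tnrc6c was at 0.025 over control IP. The correction for GC content and transcript length put Dicer1 at -0.051 over control IP, Eif2c3 at 0.13 and Tnrc6b at 0.018 over the input, and Eif2c3 at 0.076 in control IP over input. With the block as well these were -0.049, 0.12, 0.0059 and 0.063. The replicate block alone put Tnrc6c at 0.0081 over the input and at 0.034 in control IP over input. Without a filter Tarbp2 was at -0.0074 over control IP.

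Leaving out each library in turn gave, over control IP, -0.086 to 0.82 for Eif2c3, -1.01 to 0.54 for Eif2c4, -0.18 to 0.58 for Tnrc6b, -0.33 to 0.33 for Tnrc6c, -0.63 to 0.26 for Dgcr8, -0.40 to 0.46 for Tarbp2 and -0.13 to 0.32 for Mov10. Over the input it gave -0.003 to 0.55 for Eif2c2, -0.41 to 0.044 for Eif2c3, -0.36 to 0.24 for Tnrc6a, -0.60 to 0.24 for Tnrc6b and -0.36 to 0.58 for Tnrc6c, and in control IP over input -0.38 to 0.57 for Tnrc6c. Alternatives for the counts of other pathway genes called, for the values of those named and for the Argonaute shares were added after seeing the data. Depth limits Eif2c4 most, with 7 reads in each input library.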
